A study of Mus musculus with 10 samples.

Results

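The SOCS family comprises Cish and Socs1 to Socs7, and p65 binding near these 8 genes was described in 4 peak lists from mouse T cells. p65 (RelA) is among the proteins that form NF-kB, and ChIP-seq (sequencing of immunoprecipitated chromatin) mapped where it was bound. The conventional T cells (Tconv) and the regulatory T cells (Treg), which restrain immune responses, came from spleens and lymph nodes of C57BL/6 mice, with no further allele or genotype named. Each was unstimulated, or stimulated for 3 h on a plate coated with an antibody against CD3 (part of the T cell receptor complex), with soluble antibody against CD28, a co-stimulatory receptor. IL-2 was added at 2 ng/ml to the Tconv culture and at 10 ng/ml to the Treg culture, so cell type and IL-2 concentration cannot be told apart in the stimulated cells. How the unstimulated cells were kept, how the cells were sorted and whether mice were pooled was not stated in the labels. Of the 10 libraries, each immunoprecipitated group had 2, and 2 were of input chromatin mixed from all of them.

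Entries of a list belonged to a gene when their summit lay inside it, or within 50 kb with it as the nearest of 21887 protein-coding genes. Entries that overlapped within a list were joined to a region, which was placed by its strongest summit. The 8 genes held 2 of the 2961 regions of the unstimulated Tconv list, 7 of 5734 in stimulated Tconv, 4 of 3208 in unstimulated Treg and 18 of 11077 in stimulated Treg. The farthest of these summits lay 14.6 kb outside its gene, and a limit of 200 kb added no region. Each list was made from both libraries of its group together and gives no value per library, so no spread between replicates and no test of a condition can be given. Fold enrichment of a summit over its local background and its −log10 p are the authors' values, and they are used here to describe and rank regions within a list. The depth behind the values is unknown. The lists end at different strengths, with a lowest −log10 p of 38.1 in stimulated Tconv, 26.6 in stimulated Treg, 15.1 in unstimulated Treg and 13.3 in unstimulated Tconv. Peak lists hold no expression, so the cell type labels could not be checked against marker genes.

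SOCS proteins are induced by cytokines and restrain the same cytokine signals, as a feedback loop. Cytokine receptors activate JAK kinases, which phosphorylate STAT transcription factors, and STATs then switch on genes that include Cish and several Socs genes. Each SOCS protein has an SH2 domain that binds phosphorylated tyrosines and a SOCS box that recruits elongins and a cullin ligase. SOCS1 and SOCS3 also inhibit JAK kinases directly. In T cells, CIS (the product of Cish) is known for restraint of IL-2 and T cell receptor signals, SOCS1 for restraint of interferon and common gamma chain cytokine signals, and SOCS3 for restraint of gp130 cytokines such as IL-6.

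The sequences printed here are from the starts of 4 of the genes, the ones with an entry in the promoter table (RefSeq, GRCm38.p6). Each stretch lies inside a p65 region described below, but only the Socs4 stretch holds the summits of its region. The sequences are written from 5′ to 3′ on the gene's own strand. The stretches are, in this order, 250 bases before the Cish start (chr9:107296409-107296658, plus strand), 20 bases from that start (chr9:107296659-107296678, plus strand), 250 bases before the Socs1 start (chr16:10785537-10785786, minus strand), 30 bases around a site before the Socs3 start (chr11:117969501-117969530, minus strand), and the 58 bases between Wdhd1 and Socs4 (chr14:47276862-47276919, plus strand). Capitals mark a loose form of the kappa B site that NF-kB binds (GGG and CC with any 5 bases between, on either strand) in the longer Cish stretch and in the Socs4 stretch. In the short Cish stretch and in the Socs3 stretch they mark TTCNNNGAA, the gamma-activated site that STATs bind. In the Socs1 stretch they mark a form of the interferon-stimulated response element (GAAA and GAAA with any 2 bases between) and, after it, the loose kappa B form.
Cish, before the start: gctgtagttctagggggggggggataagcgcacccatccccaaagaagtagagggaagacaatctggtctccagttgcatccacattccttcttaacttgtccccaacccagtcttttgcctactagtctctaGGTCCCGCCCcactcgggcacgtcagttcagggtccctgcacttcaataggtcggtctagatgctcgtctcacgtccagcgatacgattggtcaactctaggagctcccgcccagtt
Cish, from the start: TTCCTGGAAagTTCTTGGAA
Socs1, before the start: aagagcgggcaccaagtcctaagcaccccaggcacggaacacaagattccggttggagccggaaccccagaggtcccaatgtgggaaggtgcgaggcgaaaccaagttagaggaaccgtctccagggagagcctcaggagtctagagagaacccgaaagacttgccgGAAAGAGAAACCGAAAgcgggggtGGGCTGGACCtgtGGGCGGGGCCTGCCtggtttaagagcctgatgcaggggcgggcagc
Socs3, before the start: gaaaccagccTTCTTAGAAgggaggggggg
Socs4, the gap to Wdhd1: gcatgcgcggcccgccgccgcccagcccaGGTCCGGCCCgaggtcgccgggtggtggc

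Motifs were searched on both strands of windows from 250 bases before to 50 bases after each start. They were chosen after the members' sequences were seen, so the shares of all windows given here describe the motifs and do not test enrichment. The loose kappa B form was present in 4 of the 4 windows, and in 50.8% of all 32851 windows of the table. The stricter kappa B consensus, which also sets purines and pyrimidines within the spacer, was in 0 of the 4 windows and in 5.8% of all windows; its matches are a subset of the loose form. TTCNNNGAA was in the windows of Cish and Socs3 and in 8.30% of all windows. Cish held it at 2 places, at bases 1 to 9 and 12 to 20 from its start, and Socs3 held it at 154 to 146 bases before its start. The interferon-stimulated response element was in the Socs1 window, as 2 overlapping matches from 83 to 68 bases before the start, and in 3.44% of all windows. The windows do not reach the distal summits or the summits near the starts of Cish and Socs1. The sequence at those summits was not analysed here.

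**Figure D1:**
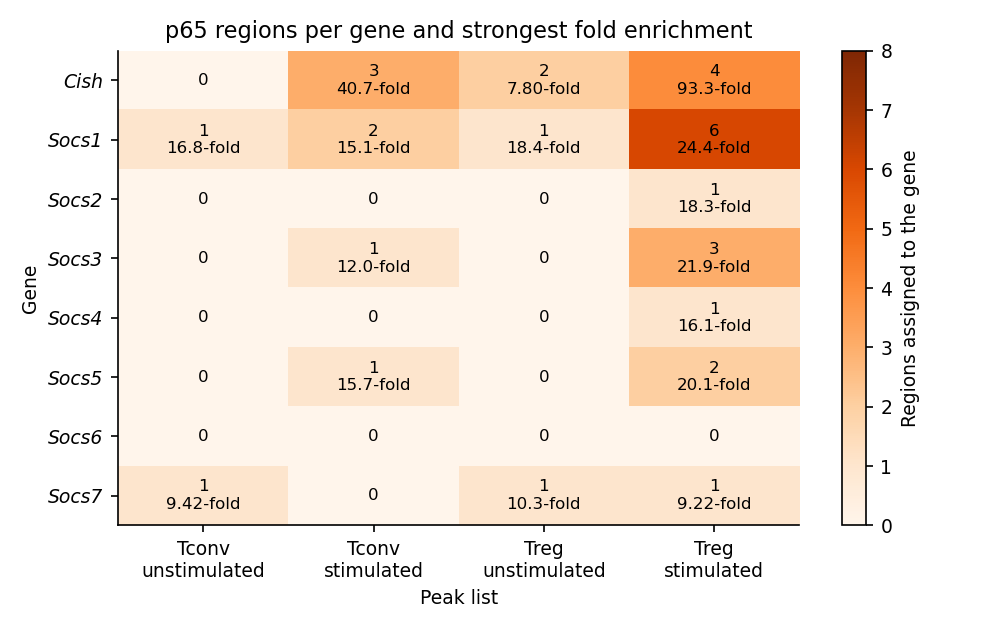
Regions assigned to each of the 8 genes (rows) in each peak list (columns); colour and the upper number give the count, and the lower number the fold enrichment of the strongest region. Stimulated Treg had a region at 7 of the 8 genes, Socs1 had one in every list and Socs6 in none; the Socs4 region of stimulated Treg had counterparts in the other 3 lists that were assigned to its neighbour Wdhd1.

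Across the family, p65 regions were at 2 of the 8 genes in unstimulated Tconv (Socs1 and Socs7), where 12.5% of all protein-coding genes had a region. They were at 3 genes in unstimulated Treg (Cish, Socs1 and Socs7; 13.4% of all genes). After stimulation they were at 4 genes in Tconv (Cish, Socs1, Socs3 and Socs5; 16.5% of all genes) and at 7 in Treg (all but Socs6; 25.2% of all genes). Merging the 4 lists gave 17 sites at the family. All 17 were in the stimulated Treg list, the longest of the 4. Most of all merged sites were in that list too, so this is not particular to the family. The largest combination of lists without stimulated Treg, that of both unstimulated lists, held 3.98% of all sites. In that list alone were 8 of them (47.1%), near the 41.1% of all 11923 merged sites. Another 4 were in both stimulated lists and in neither unstimulated one (27.5% of all sites), and 2 were in all 4 lists (13.8%). A further 2 were in every list but unstimulated Tconv (3.16%), and 1 was in every list but stimulated Tconv (2.89%).

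**Figure D2:**
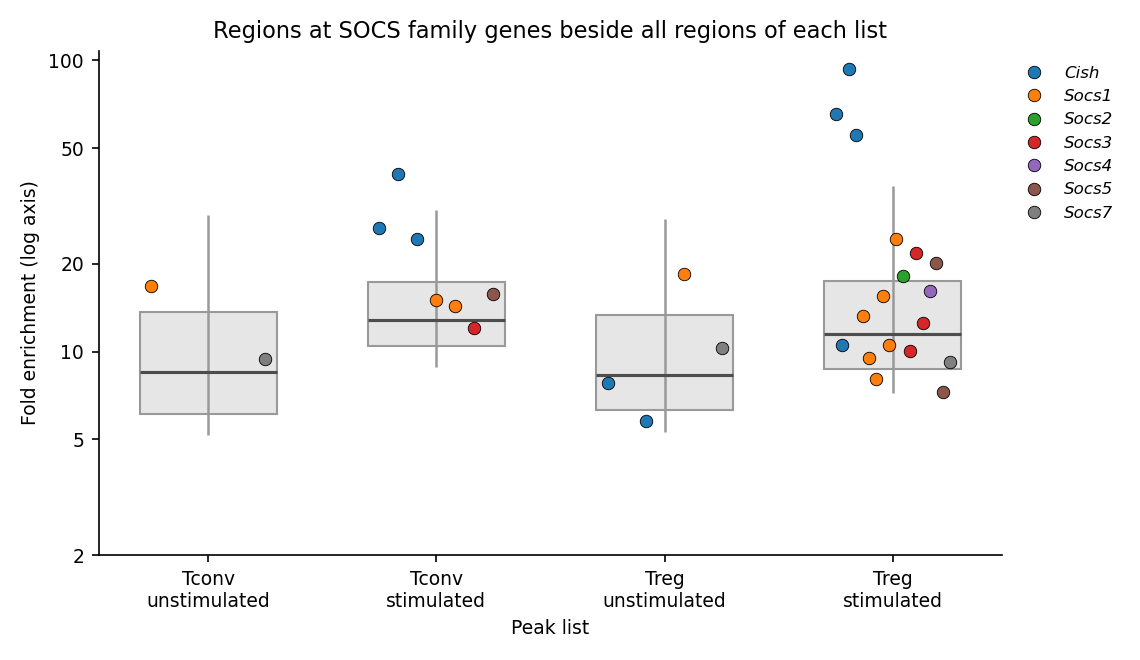
Fold enrichment (log axis) of each region at the family, coloured by gene, beside all regions of the same list (box from the 25th to the 75th percentile with the median, line from the 5th to the 95th). Stimulated Cish regions lie above the boxes in both cell types, except the 10.6-fold region of stimulated Treg, while most other regions lie inside or near the boxes.

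Cish had the strongest binding of the family in both stimulated lists and no entry in unstimulated Tconv, and its gene lies at chr9:107296659-107302784 on the plus strand. At the site 3.50 kb beyond the 3′ end of the gene, stimulated Treg had 93.3-fold enrichment, the rank of 6 by fold among its 11077 regions. At the same site, stimulated Tconv had 40.7-fold, the rank of 105 among 5734 regions. Unstimulated Treg had 7.80-fold there, the rank of 1747 among 3208. The nearest unstimulated Tconv summit to the gene was 231 kb away, assigned to Tmem115. The site is thus at the top of both stimulated lists, near the middle of the unstimulated Treg list (percentile 45.0) and absent from unstimulated Tconv. The summits of the stimulated lists lay 4 bp apart, and that of unstimulated Treg lay 60 bp from that of stimulated Treg.

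A further Cish site lay 10.2 kb beyond the 3′ end. It had 55.3-fold enrichment in stimulated Treg, 24.4-fold in stimulated Tconv and 5.77-fold in unstimulated Treg, and was absent from unstimulated Tconv. Its summits in the stimulated lists were 8 bp apart. In unstimulated Treg this was a weak region of its list, at percentile 14.5 by fold, against 98.6 in stimulated Treg and 89.9 in stimulated Tconv.

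The promoter region of Cish was in both stimulated lists and in neither unstimulated list. Its stronger summit lay 862 bp before the start in stimulated Treg (65.7-fold, −log10 p 587) and 835 bp before it in stimulated Tconv (26.6-fold, −log10 p 174). A summit of the same region lay 73 bp after the start in stimulated Treg (49.6-fold) and 62 bp after it in stimulated Tconv (9.36-fold). These latter summits lie just after the paired TTCNNNGAA matches printed above, and the loose kappa B match lies between the summit pairs, at 117 to 108 bases before the start. Another region, 482 bp beyond the 3′ end, was in stimulated Treg alone (10.6-fold, −log10 p 49.97).

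**Figure D3:**
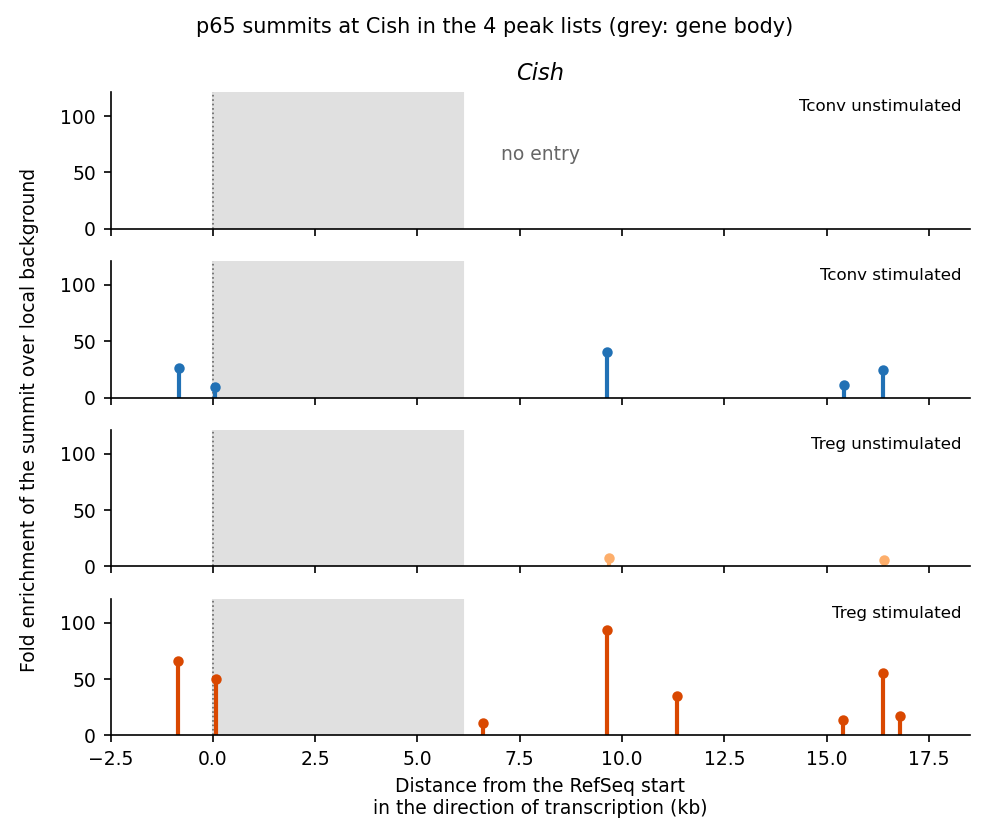
Fold enrichment of each p65 summit at Cish against its distance from the RefSeq start, 1 panel per list, with the gene body in grey. Unstimulated Tconv has no entry, unstimulated Treg has 2 weak summits 9.69 and 16.4 kb from the start, and both stimulated lists have further summits on either side of the start.

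Cish had 8 summits in 4 regions in stimulated Treg and 5 summits in 3 regions in stimulated Tconv. Few genes had as many regions, since 2.62% of protein-coding genes had at least 4 in stimulated Treg and 1.83% at least 3 in stimulated Tconv. The stretch of genome nearest to Cish and within 50 kb was 21.7 kb long, and its stimulated Treg regions together covered 8.75 kb. Next to Cish, a region inside Mapkapk3, 15.6 kb before Cish, was 23.4-fold in stimulated Treg, 37.1-fold in stimulated Tconv and 5.64-fold in unstimulated Treg, and absent from unstimulated Tconv. That region was in the same 3 lists as the downstream Cish sites.

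By nearest gene, Socs1 was the only member with a region in every list, and it had 6 merged regions in stimulated Treg against 4 at Cish. That order depends on the setting, since Socs1 had 1 region and Cish 3 with equal list lengths, 6 against 8 with entries left unmerged, and 6 against 7 with every protein-coding gene within 50 kb. The gene lies at chr16:10783808-10785536 on the minus strand. At its start, inside the gene, enrichment was 16.8-fold in unstimulated Tconv, 14.4-fold in stimulated Tconv, 18.4-fold in unstimulated Treg and 24.4-fold in stimulated Treg. By rank within the list the order was percentile 82.3, 61.4, 86.2 and 86.7, so the start region sat in the upper part of the unstimulated lists and of the stimulated Treg list, and nearer the middle of the stimulated Tconv list. The 4 summits lay 56 to 143 bp after the start, within 87 bp of each other. The matches to the interferon-stimulated response element, 83 to 68 bases before the start, are inside the region in all 4 lists.

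The stimulated lists held regions beyond the 3′ end of Socs1 that the unstimulated lists did not. A region 1.52 kb beyond it was in stimulated Tconv (15.1-fold), and stimulated Treg had a region 1.63 kb beyond it (15.5-fold) and another 415 bp beyond it (10.5-fold), both overlapping the single Tconv region. Farther out, stimulated Treg alone had regions 8.61 kb (8.07-fold), 11.5 kb (9.53-fold) and 14.6 kb (13.3-fold) beyond the 3′ end. These 3 regions are in the lower or middle part of their list, at percentiles 15.9, 32.8 and 60.4. With 6 regions over 18.1 kb, Socs1 was among the 1.25% of protein-coding genes with at least 6 in the full list. In stimulated Tconv it had 2 regions, and 3.96% of genes had at least 2. The protamine and transition protein genes on the other side of Socs1 (Tnp2, Prm3, Prm2 and Prm1, which act in sperm chromatin) had 0 regions in all 4 lists.

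Socs3 had regions in the stimulated lists alone. The gene lies at chr11:117966079-117970336 on the minus strand. A site just beyond its 3′ end was 21.9-fold enriched in stimulated Treg (339 bp beyond, −log10 p 135) and 12.0-fold in stimulated Tconv (351 bp beyond, −log10 p 55.7), with the summits 12 bp apart. Stimulated Treg alone had a region at the RefSeq start, with its summit 4 bp after it (12.5-fold, −log10 p 59.8), and another region 13.7 kb beyond the 3′ end (10.0-fold, −log10 p 42.8). In the unstimulated lists the nearest summits to Socs3 were 117 kb away, assigned to Birc5. The TTCNNNGAA match of the printed Socs3 stretch lay inside the start region of stimulated Treg. Having at least 3 regions in that list was a property of 4.17% of protein-coding genes.

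**Figure D4:**
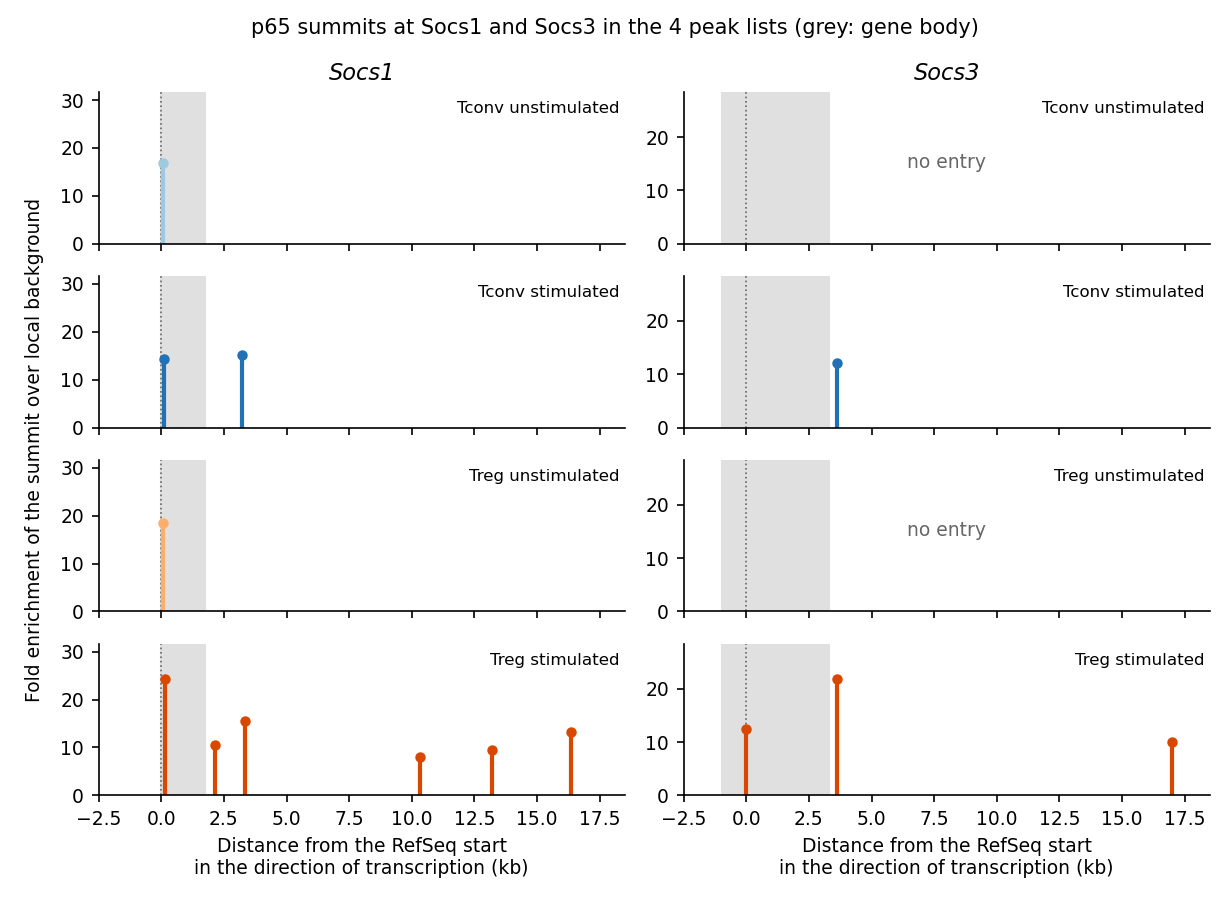
Fold enrichment of each p65 summit at Socs1 (left) and Socs3 (right) against its distance from the RefSeq start in the direction of transcription, 1 panel per list, with the gene body in grey. The Socs1 start is bound in all 4 lists, the site just beyond the 3′ end of Socs3 in both stimulated lists, and the outermost summits of both genes in stimulated Treg alone.

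Socs2, whose product restrains growth hormone signalling, had a single region, in stimulated Treg alone. It was 18.3-fold enriched (−log10 p 113, percentile 76.8 of the list), with its summit inside the gene (chr10:95383903-95417321), 417 bp from the nearer end. In the other lists the nearest summits were 97.7 kb away, at Ube2n. Of the 8 sites that only stimulated Treg had, this one had the highest fold enrichment.

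Socs5, known for restraint of IL-4 receptor and EGF receptor signals, had a region inside the gene (chr17:87107278-87137647), near one end, in both stimulated lists. It was 20.1-fold enriched in stimulated Treg and 15.7-fold in stimulated Tconv, with the summits 1 bp apart and 241 and 242 bp from that end. A weak region 11.8 kb from the nearer end, also inside the gene, was in stimulated Treg alone (7.27-fold, percentile 5.49 of the list). Neither unstimulated list had a Socs5 region.

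Socs4 and Socs7 had regions at gene ends that were present without stimulation in both cell types. Socs4 lies 58 bp from Wdhd1, a DNA replication gene, and a region over this gap was in all 4 lists. Its fold enrichment in Tconv was 17.5 unstimulated and 19.9 stimulated, and in Treg 16.6 unstimulated and 16.1 stimulated. The rule gave it to Socs4 in stimulated Treg alone, because that summit lay 4 bp from Socs4, while the other 3 lay 39 to 55 bp from Socs4 and 4 to 20 bp from Wdhd1. All 4 summits lay in the 58 bases printed above, within 51 bp of each other, so this region is not a difference between the lists. The number of members with a region depends, in each of the 4 lists, on which side of the gap the summit falls.

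The Socs7 region lay just outside one end of the gene (chr11:97362292-97398542), with 9.42-fold enrichment in unstimulated Tconv, 10.3-fold in unstimulated Treg and 9.22-fold in stimulated Treg. Its summits were 87, 84 and 33 bp from the gene. Stimulated Tconv had no entry there. The −log10 p of the region was 35.2 in unstimulated Tconv and 37.5 in stimulated Treg, both below the lowest value in the stimulated Tconv list (38.1). In unstimulated Treg it was 44.2, above that lowest value. Whether the site lay below the end of the stimulated Tconv list was not tested.

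Socs6 had no entry in any of the 4 lists, although the genome within 50 kb and nearest to it was 118 kb long, the longest stretch of the 8 genes. The nearest summits to it were 266 kb away in stimulated Treg and 312 kb in stimulated Tconv, both assigned to Cd226, and 1616 kb away in both unstimulated lists.

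Stimulated against unstimulated Tconv compared cells after 3 h with antibodies against CD3 and CD28 and with IL-2 to cells whose culture was not stated. The antibodies, IL-2 and time in culture therefore cannot be told apart in this comparison. Of the 7 regions at the family in stimulated Tconv, 6 had no unstimulated counterpart, against 67.4% of all regions of the list. These were the 3 Cish regions, the Socs1 region beyond the 3′ end, and the Socs3 and Socs5 regions. The 7th, at the Socs1 start, had one. Of the 8 genes, 3 had a region in the stimulated list and none in the unstimulated one, as did 8.16% of all genes. In the other direction, 1 of 2 regions, that of Socs7, had no stimulated counterpart (36.3% of all regions), and 1 gene was in the unstimulated list alone (4.18% of all genes).

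The same comparison in Treg gave 13 of 18 stimulated regions without an unstimulated counterpart, against 77.3% of all regions of that list, and 4 of 7 with equal list lengths. In the full list, the 5 with a counterpart were the 2 downstream Cish sites and the ends of Socs1, Socs4 and Socs7. Of the 4 unstimulated Treg regions, 0 lacked a stimulated counterpart (21.6% of all regions). The stimulated Treg list, but not the unstimulated one, had a region at 4 of the 8 genes (14.4% of all genes); without Socs4, whose region was present in both under the neighbour's name, these were Socs2, Socs3 and Socs5. The shares of regions without a counterpart at the family are close to those of the whole lists in Treg and rest on few regions in Tconv.

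Between the unstimulated lists the family differed at Cish. Both Cish regions of unstimulated Treg had no Tconv counterpart, making 2 of 4 regions (20.6% of all regions), and Cish was the 1 gene bound in the unstimulated list of Treg but not of Tconv (2.59% of all genes). Their −log10 p was 28.6 and 23.9, above the lowest value of the unstimulated Tconv list (13.3). At the cut-off common to all 4 lists (−log10 p 38.1) neither was listed. The unstimulated Tconv regions, at Socs1 and Socs7, both had a Treg counterpart, so 0 of 2 lacked one (13.9% of all regions), with summits 17 and 3 bp apart.

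Between the stimulated lists, every Tconv region of the family had a Treg counterpart in the full lists, and the longer Treg list had further sites. Of the 18 regions in stimulated Treg, 9 had no counterpart in stimulated Tconv, against 49.3% of all regions of that list, while 0 of the 7 stimulated Tconv regions lacked a Treg counterpart (4.15% of all regions). The 9 were 3 at Socs1, 2 at Socs3 and 1 each at Cish, Socs2, Socs5 and Socs7, with fold enrichments from 7.27 (Socs5) to 18.3 (Socs2). Of these, 3 had a −log10 p below 38.1, the lowest value of the stimulated Tconv list: the Socs1 region 8.61 kb beyond the gene (30.4), the inner Socs5 region (31.0) and the Socs7 region (37.5). By gene, 3 were bound in the stimulated list of Treg but not of Tconv (9.49% of all genes), namely Socs2, Socs4 and Socs7. The Socs4 region had a Tconv counterpart under the neighbour's name. The Socs7 value in stimulated Treg was below the lowest Tconv value, but a value from that list does not give the site's value in Tconv. The share at the family is close to that of the whole list. With the lists cut to equal lengths (3132 entries each), 2 of 7 stimulated Treg regions lacked a Tconv counterpart and 1 of 6 stimulated Tconv regions lacked a Treg one, so these counts move with list length. IL-2 concentration also differed between the 2 cell types and cannot be told apart from cell type.

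Within each list, regions at the family had a median fold of 13.1 in unstimulated Tconv (8.49 over the whole list), 15.7 in stimulated Tconv (12.8), 9.05 in unstimulated Treg (8.30) and 14.4 in stimulated Treg (11.5). The members ranged from 7.27-fold to 93.3-fold in stimulated Treg. The 3 highest there were all Cish regions, and no region of another member exceeded 24.4-fold.

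For each member with a region in at least 2 lists, the genes whose strongest regions had the most similar percentiles by fold over the 4 lists were found, by the largest difference in any list, with a gene at 0 where it had no region. The ranks nearest to those of Cish were those of Pgghg, Ptpn22, a phosphatase gene of T cell receptor signalling, and Kansl1l, with largest differences of 1.90, 3.20 and 3.40 percentile points. Ptpn22 was 49.5-fold enriched in stimulated Treg, 36.3-fold in stimulated Tconv and 7.51-fold in unstimulated Treg, with no region in unstimulated Tconv. Nearest to Socs1 were Cyrib, Rnf149 and Tmem65 (4.38, 4.38 and 6.53 points). Nearest to Socs3 were Cnst, Vwa3b and Hspa1b (0.462, 1.03 and 1.56 points), and to Socs5 Nipal3, Spn and Tmc8 (0.348, 0.406 and 0.759 points). Nearest to Socs7 were Pdcd6ip, Naa25 and Ccne2 (3.53, 5.61 and 5.62 points). With 4 lists and 21887 genes, close ranks occur at many genes, most easily for members with a region in 2 lists only.

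Other genes of the cytokine pathway were counted by lists that, like the members, were chosen with earlier results of these data known. Their counts stand beside the shares of all protein-coding genes with a region. These were 12.5% in unstimulated Tconv, 16.5% in stimulated Tconv, 13.4% in unstimulated Treg and 25.2% in stimulated Treg. All 4 JAK kinase genes had a region in both stimulated lists, with 2 in unstimulated Tconv and 3 in unstimulated Treg. Of the 7 STAT genes, 6 had one in stimulated Treg, 5 in stimulated Tconv and 2 in each unstimulated list. Stat5b, which encodes a STAT that IL-2 activates, was 50.5-fold enriched in stimulated Treg, 40.2-fold in stimulated Tconv, 13.1-fold in unstimulated Treg and 12.0-fold in unstimulated Tconv at its strongest regions. Unlike Cish, it had regions in all 4 lists.

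Of the 24 cytokine receptor chain genes, 13 had a region in each stimulated list, 10 in unstimulated Treg and 5 in unstimulated Tconv. Of these, 5 had regions in every list but unstimulated Tconv, as Cish did (Il2ra, Il4ra, Il7r, Il6ra and Il10ra), and so did Jak1 and Ptpn1 of the other lists. The share of all genes with this combination of lists was not counted, so it is not shown to be particular to the pathway. Il2ra, the IL-2 receptor alpha chain gene, had 62.9-fold enrichment in stimulated Treg, 34.8-fold in stimulated Tconv and 6.72-fold in unstimulated Treg. Of 11 genes for other restraints on JAK-STAT signalling, such as phosphatases and PIAS proteins, 9 had a region in stimulated Treg, 7 in stimulated Tconv and 5 in each unstimulated list. The adaptor gene Sh2b3 (63.4-fold) and the phosphatase gene Ptprc, which encodes CD45 (69.0-fold), had the highest folds of that list in stimulated Treg, both below the 93.3-fold of Cish.

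Of the 6 genes for partners of the SOCS box, 3 had a region in each stimulated list and 2 in each unstimulated list. The strongest were at Rbx1, a RING subunit of cullin ligases, with 19.6-fold in unstimulated Tconv, 18.2-fold in stimulated Tconv, 20.2-fold in unstimulated Treg and 19.1-fold in stimulated Treg. A comparison list labelled NF-kB inhibitors held IkB family genes (Nfkbia, Nfkbib, Nfkbie, Nfkbiz, Nfkbid and Bcl3) and Tnfaip3. All 7 of its genes had a region in every list, against 2 to 7 of the 8 SOCS family genes. Nfkbia, which encodes the inhibitor IkB-alpha, was 102-fold enriched in stimulated Treg. Of 4 Treg genes counted beside the family (Foxp3, Il2ra, Ctla4 and Ikzf2), 0 had a region in unstimulated Tconv, 2 in each of stimulated Tconv and unstimulated Treg, and 4 in stimulated Treg.

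**Figure D5:**
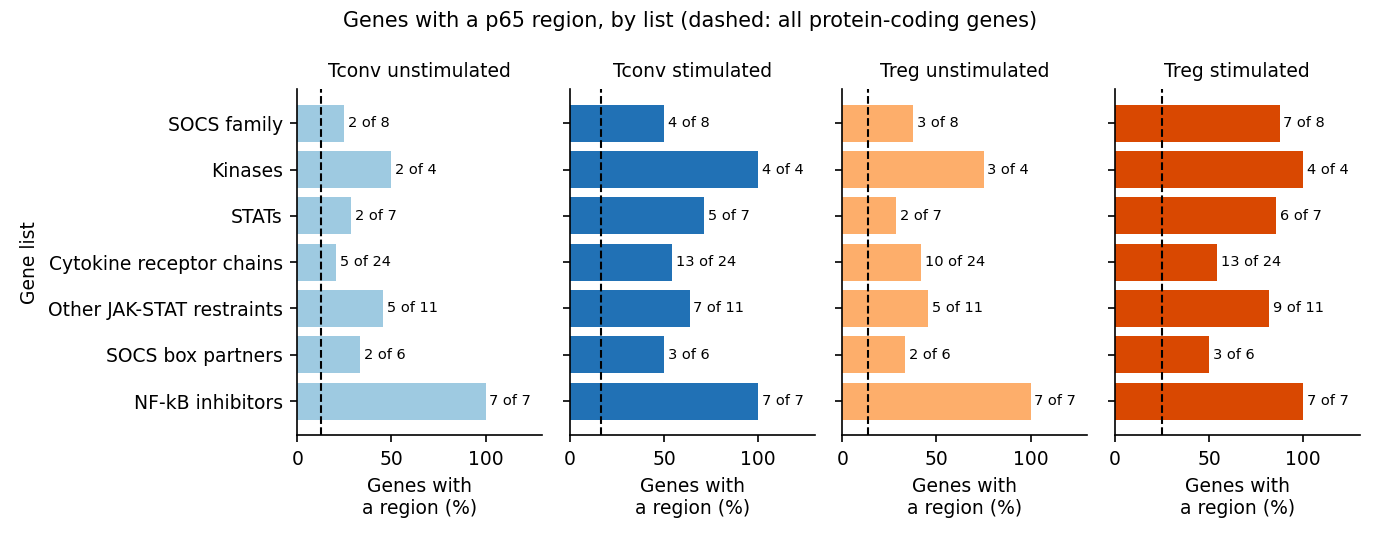
Percent of genes with a p65 region in each list for the SOCS family, 5 cytokine pathway lists and the list labelled NF-kB inhibitors. Counts stand beside the bars, and the dashed line is the share of all protein-coding genes. Each of the 7 gene lists drawn lies above the dashed line in every panel, and the list labelled NF-kB inhibitors is at the full length in all 4 panels. All 7 gene lists were chosen with earlier results of these data known, so their place above the line is not a test.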

How the data were processed

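p65 ChIP-seq peak lists were used for 4 groups of 2 libraries; the inputs have no list of their own. The submitters' processing notes name MACS2 2.1.1.20160309, the trimmer Trim Galore 0.4.1, the aligner BWA 0.7.15-r1140 and, as genome, mm10. The file names describe pooled replicates, removal of blacklisted regions and a conservative test of reproducibility. The deposited fold is the authors' ratio of each summit over local background, and the deposited −log10 p is likewise theirs. Deeper libraries give longer lists and higher values, and depth is unknown; per the labels' protocols the libraries went through 12 cycles of PCR.

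Entries sharing at least 1 bp were merged, keeping the summit with the highest −log10 p, and regions sharing 1 bp between lists were counterparts (Python 3.11.15, numpy 2.4.6, pandas 2.3.3). Several summits were joined in 5.47% to 14.7% of regions. Gene positions came from RefSeq's GRCm38.p6 table, whose coordinates are those of mm10; strand and start were known for the 4 members of the promoter table. The design's motif search around summits was done in promoters only. Of 300 gene assignments checked by brute force, 0 disagreed. Simulated lists, made by keeping a part of the stimulated Treg regions and shifting them slightly, were recovered. This checks the overlap step alone and says nothing about counterparts between the real lists. All 8 members are named; of the pathway genes, those among the 3 highest folds of a list; and the 3 genes of most similar ranks. Members and lists were chosen with earlier results of these data known, and the motifs after their sequences were seen.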

Additional observations from a re-analysis of the deposited data

How the results depend on the processing

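No paired analysis was possible because each list pools both libraries of its group; for the same reason no replicate was left out. Over the alternatives, 131 of 153 recomputed counts over the family stayed within 1.5 times the reported one, and the rest follow. Of 148 counts for single genes, 120 did. Both totals include settings that changed no count, namely the 200 kb limit and those added after seeing the data, so they do not measure stability. With equal list lengths the single-gene counts in stimulated Treg fell from 6 to 1 at Socs1, 3 to 1 at Socs3, 2 to 1 at Socs5 and 1 to 0 at Socs4 and Socs7, and the Socs3 region of stimulated Tconv was lost, as it was in the upper 50%. Both Cish regions of unstimulated Treg were lost in the upper 50% and at the common cut-off. With every protein-coding gene within 50 kb, the family had 4 regions in unstimulated Tconv and 11 in stimulated Tconv. Unstimulated Treg then had 8, 4 of which had no unstimulated Tconv counterpart. Neighbours' regions at Wdhd1, Mrpl45, Mapkapk3 and 6430571L13Rik are counted in these numbers. A distance of 10 kb left 1 unstimulated Treg region without an unstimulated Tconv counterpart. At the common −log10 p cut-off, unstimulated Tconv had 1 region at 1 gene, with 0 lacking a stimulated counterpart, and unstimulated Treg had 2 regions, of which 1 lacked a stimulated Treg and 1 an unstimulated Tconv counterpart by that cut-off. Equal list lengths (3132 entries) gave 7 regions in stimulated Treg, 4 without an unstimulated and 2 without a stimulated Tconv counterpart, and 1 unstimulated Treg and 1 stimulated Tconv region without a stimulated Treg counterpart. The upper 50% of each list gave 2 regions in unstimulated Treg, of which 1 lacked a stimulated Treg and 0 an unstimulated Tconv counterpart, and 5 stimulated Treg regions without a stimulated Tconv counterpart. A reciprocal overlap of 50% left 2 unstimulated Treg and 2 stimulated Tconv regions without a stimulated Treg counterpart. Letting any summit decide a region's gene, and using RefSeq genes of any type, both added after seeing the data, changed none of these counts. A site absent from a list may lie below that list's lowest value.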
